A study of Drosophila melanogaster and Drosophila virilis with 60 samples.

Results

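The larval instars of Drosophila melanogaster were compared with each other as an ordered series, from 3 whole-body RNA-seq libraries, 1 each for the 1st, 2nd and 3rd instar, of 60 libraries in all. The libraries were chosen by their stage labels, and no measured value entered the choice. The study followed metamorphosis in D. melanogaster and Drosophila virilis over 10 stages per species. The other 27 D. melanogaster libraries came from 10 h embryos, 7 prepupal and pupal stages (P1 to P5, 24 h and 48 h) and 5-day-old adult males. The larvae were wild-type Oregon-R, untreated and of unknown sex, were pooled, several to a library, and were taken about midway between molts. Larvae of the 3 instars carry the numbers 1, 2 and 3 as replicates of a single larval stage in the labels. Each instar is therefore a single library, so no difference below has a replicate check and no p-value is given. The study describes the quality of its 2nd-instar material as suboptimal. It reports that its later analyses therefore used the 1st and 3rd instar, although it elsewhere says that all larval samples were averaged. The ratio of 3rd over 1st instar given below does not use the 2nd-instar library, although a gene's entry does, through its mean.

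A fruit fly larva feeds almost without pause and sheds its cuticle at the end of each instar. Each molt is triggered by a pulse of the steroid ecdysone, while juvenile hormone keeps the molt larval. Late in the last instar the fat body stores amino acids as serum proteins, the salivary gland fills with the glue that fixes the puparium, and the nervous system and imaginal discs grow toward metamorphosis.

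The deposited values are on a log2-like variance-stabilized scale. They were turned back into read counts and into counts divided by the authors' size factors, called normalized counts below. The libraries held 7837234, 8854910 and 13434700 counts in the 1st, 2nd and 3rd instar, against 7350353 to 11961031 in the 27 other libraries. Counts were found for 11495, 11282 and 11679 genes, fewer than the 12174 to 13249 genes of the other libraries. The 100 most abundant genes took 37.6%, 40.1% and 55.8% of the counts, against 21.6% to 43.4% elsewhere, so the 3rd-instar library stood apart. Pseudogenes of ribosomal RNA took 0.410%, 4.84% and 5.89% of the counts, within the 0.150% to 14.4% of the other libraries. Mitochondrially encoded genes took 1.81%, 1.01% and 0.104%, the last of which lay below the 0.447% to 5.96% of the other libraries. The part of these differences in the results below was not tested.

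The choice of scale matters in this series. The authors' size factors were 0.776, 0.584 and 0.335 for the 3 instars, and 0.792 to 1.80 for the other libraries, so the ratio of 3rd over 1st instar is 3.97 times larger in normalized counts than in CPM, counts scaled to a common library total, a shift of 1.99 on the log2 scale. The corresponding log2 shifts are 0.59 for 2nd over 1st instar and 1.41 for 3rd over 2nd instar. The median log2 ratio of all genes was 0.14 for 3rd over 1st instar in normalized counts and -1.85 in CPM. A gene is called higher or lower below where its ratio of normalized counts was 4-fold or more. For most counts of 3rd over 1st instar, the number of calls that also passed 4-fold in CPM is given beside it. The shift is the same for every gene and makes each ratio smaller in CPM. A gene called lower in normalized counts is therefore always called lower in CPM too. For lower genes, agreement of both scalings was thus fixed in advance and is no added check. Counts given without such a number, as for the peaks within gene lists, rest on normalized counts alone. Genes entered with a mean of 10 or more normalized counts over the 3 libraries, which 10399 of 14127 genes reached. A library with 0 counts was set to a floor of 3 counts, which makes the ratio a lower bound. A gene at 0 in the 1st and 2nd instar can enter only through its 3rd-instar value. Its call as higher in normalized counts then follows from the filter and the floor.

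Of the genes that entered, 1736 (16.7%) were called higher in the 3rd than in the 1st instar and 1116 (10.7%) were called lower. In both scalings 507 genes (4.88%) were higher and 1116 (10.7%) were lower, so the excess of higher over lower calls in normalized counts turned round, and CPM alone gave 507 higher and 4798 lower genes (46.1%). The 2nd instar lay between its neighbours for most of these genes: 1495 genes (14.4%), or 86.1% of the higher genes, rose at both steps and 889 (8.55%), or 79.7% of the lower genes, fell at both. For 2nd over 1st instar 541 genes (5.20%) were higher and 575 (5.53%) lower, and for 3rd over 2nd instar 1008 (9.69%) were higher and 632 (6.08%) lower. A peak in the 2nd instar, 4-fold or more above both neighbours, was found for 178 genes (1.71%), and a trough for 42 (0.404%). In both scalings 389 genes rose and 889 fell at both steps, 158 had a peak and 15 a trough. For 2nd over 1st instar 380 were then higher and 575 lower, and for 3rd over 2nd instar 315 and 632.

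Spread between libraries of a single stage could be read only from the other stages. Between 2 replicate libraries of those stages, 0.130% to 5.78% of genes passed 4-fold (median 0.573%, 27 pairs), against 27.4% for 3rd over 1st, 15.8% for 3rd over 2nd and 10.7% for 2nd over 1st instar. Gene by gene, 5858 of 10196 genes with such a measure (57.5%) had a larger ratio between 3rd and 1st instar than between any replicate pair of the other stages. For the genes called here, which were selected for a large ratio, the numbers were 1632 of 1682 higher and 1040 of 1079 lower genes. Spearman coefficients across all genes were 0.937 between 2nd and 1st, 0.896 between 3rd and 2nd and 0.846 between 3rd and 1st instar, where replicate pairs of other stages ranged from 0.951 to 0.993. These coefficients are descriptions across genes, which are not independent replicates. Against the mean profiles of neighbouring stages, the 1st instar had 0.805 with embryos and 0.714 with P1 prepupae, the 2nd 0.755 and 0.694, and the 3rd 0.668 and 0.742. The order with P1 depended on the measure. Over the genes that entered, Spearman coefficients with P1 were 0.584, 0.544 and 0.574 for the 1st, 2nd and 3rd instar. Pearson coefficients with P1 across all genes were 0.7135, 0.6959 and 0.7101, so by these measures the 3rd instar was not the nearest to P1.

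**Figure D1:**
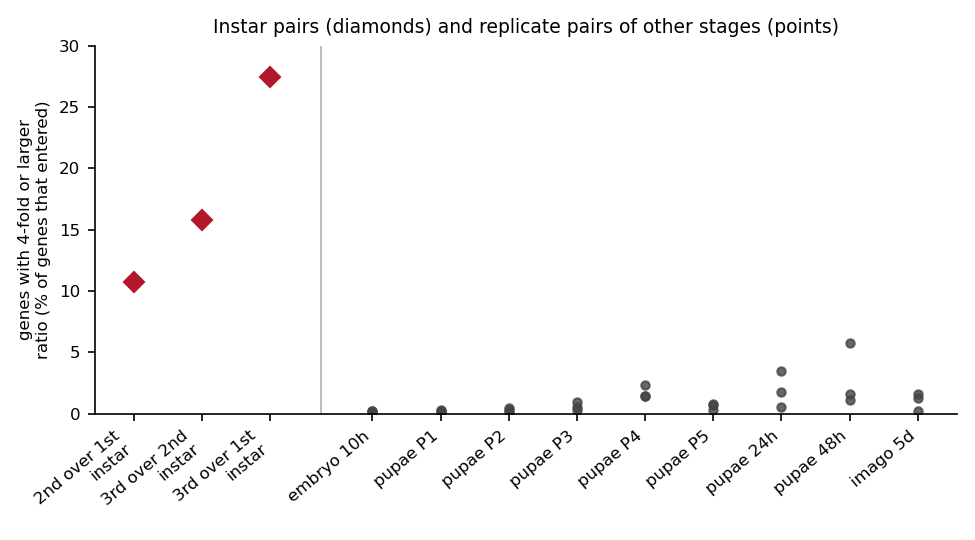
Share of genes with a ratio of 4-fold or more in either direction, as percent of the genes that entered each pair. Diamonds are the 3 instar pairs, at 10.7%, 15.8% and 27.4%, and points are replicate pairs of the 9 other stages, none of which exceeded 5.78%.

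Among the 8 largest rises, 5 were of the fat body's storage and related proteins. All 6 genes of the list of serum and fat body proteins rose at both steps and were higher in both scalings, with a median log2 ratio of 16.76 against 0.14 for all genes. Together they took 0.000064%, 0.147% and 5.80% of all counts in the 1st, 2nd and 3rd instar. Lsp2, a hexamerin that stores amino acids, had 0, 65.1 and 940041 normalized counts, at least 242997-fold more in the 3rd than in the 1st instar. Lsp1beta, a subunit of the other hexamerin, had 0, 11886 and 481119 normalized counts. Its partner Lsp1gamma had 0, 9090 and 382666, and Lsp1alpha 0, 1147 and 214579. The Lsp1 genes were thus already well counted in the 2nd instar, when Lsp2 had 38 counts. The receptor gene Fbp1, whose product takes hexamerins back into the fat body, had 5.16, 15.4 and 113536 normalized counts. Fbp2 had 1.29 (a single read), 36.0 and 196502, a ratio of 152385 (95% interval 27349 to 6018988; Clopper-Pearson intervals here cover counting error only). The Lsp1 subunits resemble each other in sequence, and Fbp2 shares exons with CG42847, so the split of reads among them is uncertain. In whole bodies, here and below, a change in the share of cells of a type and a change in RNA per cell cannot be told apart.

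Among the 8 genes with the largest rise, Obp99b and CG34227 stood beside the storage proteins. Obp99b, annotated as an odorant-binding protein, had 0, 373 and 830380 normalized counts, and in the 3rd instar took 20686 CPM. The uncharacterized CG34227 had 0, 3.42 and 249993. Both were all but absent from the 1st-instar library and ranked with the storage proteins in the 3rd. Of 22 other odorant-binding protein genes that entered, 5 were higher and 4 lower, 2 and 4 of these in both scalings. Among all genes 16.7% were higher and 10.7% lower. The median log2 ratio of the 22 was -0.22 in normalized counts and -2.21 in CPM. Obp99c reached 2062, 5546 and 34914 normalized counts, while Obp83cd had 650, 1274 and 95.6.

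Glue genes of the salivary gland separated the 3rd instar from the others. All 11 members that entered were higher in both scalings, with a median log2 ratio of 10.00. Sgs3 had 0, 0 and 20665 normalized counts, Sgs8 0, 0 and 18926, Sgs4 0, 0 and 10598, and Sgs1 0, 0 and 2665. Sgs7, which is close to Sgs8 in sequence so that reads may be divided between them, had 0, 1.71 and 15170. No Sgs gene had more than 1 read in the 1st- or 2nd-instar library. Those at 0 in both entered through the 3rd instar alone, so their call as higher in normalized counts was fixed. The new glue genes behaved otherwise. The gene ng1 had 0, 1096 and 472 normalized counts, ng2 1.29, 1431 and 248, and ng3 3.87, 810 and 983, so they were present in the 2nd instar. Of these 3, ng2 met the criterion of a peak. The remaining ng4 had 0, 8.56 and 0 and did not enter.

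**Figure D2:**
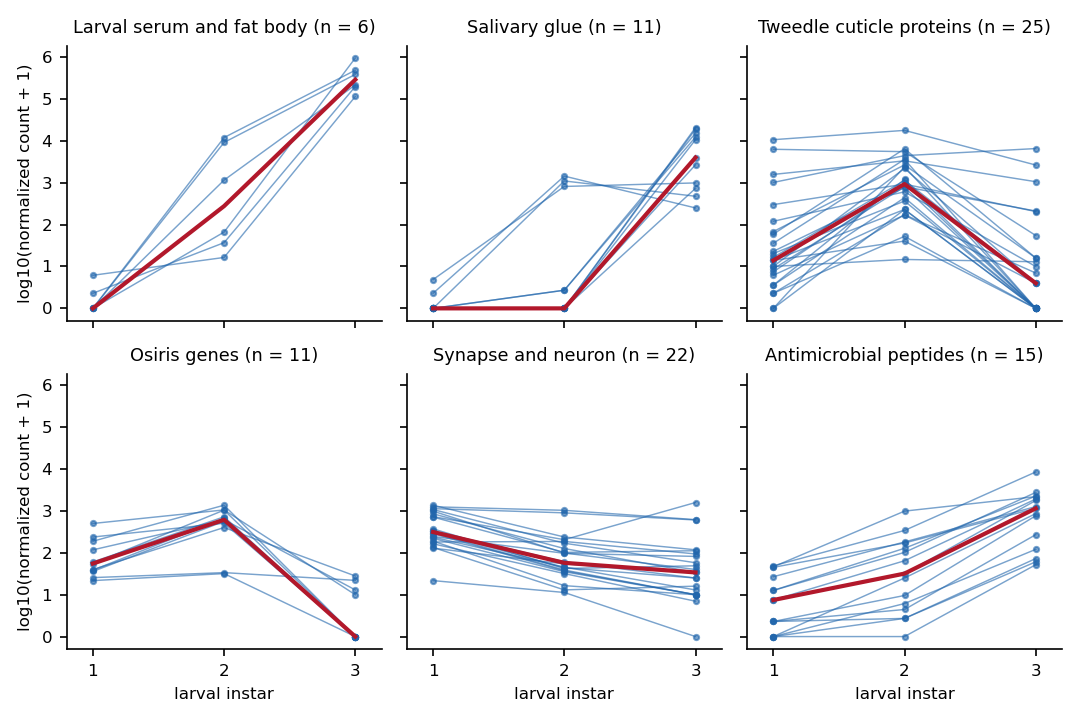
Profiles of 6 gene lists over the instars, with log10(normalized count + 1) against instar. Thin lines are single genes and the thick line is the list's median. Serum and fat body genes climb to between 113536 and 940041 normalized counts, the Sgs glue genes appear in the 3rd instar, and 17 of 25 Tweedle and 7 of 11 Osiris genes peak in the 2nd.

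Cuticle protein genes took different courses over the instars. Of 108 that entered, 38 were higher in the 3rd than in the 1st instar (22 in both scalings) and 16 lower. These were 35.2% and 14.8% of the list, against 16.7% and 10.7% of all genes. A peak in the 2nd instar was found for 39, 36.1% against 1.71% of all genes. The list's median log2 ratio for 3rd over 1st instar was 0.48 in normalized counts and -1.51 in CPM. The classical larval cuticle genes Lcp1 to Lcp4 rose at each step: Lcp1 had 10.3, 940 and 421522 normalized counts, Lcp2 36.1, 2267 and 225046, Lcp3 3.87, 5633 and 60596, and Lcp4 748, 12938 and 412543. Lcp65Ab1 had 47.7, 19833 and 385681, and Lcp9 had 0, 1074 and 54163. By contrast, 3 genes of the 65A cluster were called lower in the 3rd than in the 2nd instar, and of these Lcp65Ag2 had 24993, 35656 and 3221. These genes have near-identical neighbours, so single values are uncertain. Of 15 Lcp-named genes 10 were higher, 7 of them in both scalings.

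Tweedle genes, which encode insect cuticle proteins that affect body shape, peaked in the 2nd instar. Of 25 that entered, 17 met the criterion of a peak. TwdlK had 0, 2375 and 0 normalized counts, TwdlJ 2.58, 1192 and 0, and TwdlM 58.0, 6424 and 14.9. TwdlH had 34.8, 3594 and 0. Exceptions were TwdlN, with 6249, 5479 and 53.8, and TwdlX, with 1010, 4406 and 6499. In the Ccp84A cluster, 6 of 7 genes had a peak, among them Ccp84Ae with 3.87, 2377 and 0 normalized counts and Ccp84Ac with 6.45, 589 and 5.98. Between 3rd and 1st instar alone 1 gene of that cluster was higher, not in both scalings, and none lower. Of 53 Cpr-named genes, which carry the chitin-binding domain of the Rebers-Riddiford type, 21 were higher (11 in both scalings), 10 lower and 11 peaked. Cpr64Ad, with 105, 5168 and 0 normalized counts, and Cpr65Ea, with 39.97, 2164 and 2.99, were among the last. Cpr78E, with 5.16, 8.56 and 6675 normalized counts, and Cpr47Ec, with 81.2, 2200 and 44703, rose.

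Osiris genes, a family of transmembrane proteins made by cuticle-forming epithelia, had a like shape. Of 23 genes 11 entered, and 7 of those had a peak in the 2nd instar. Osi15 had 187, 1360 and 0 normalized counts, Osi20 54.2, 1038 and 0, Osi9 59.3, 719 and 0, and Osi6 498, 1050 and 8.96. In all, 7 genes were lower in the 3rd than in the 1st instar, by at least 26.3-fold for Osi7 and by 55.5-fold for Osi6 (ratio 0.0180, 95% interval 0.00370 to 0.0530), and all of them in both scalings. No Osiris gene was higher. Since the peak in both families rests on the single 2nd-instar library, its part in the pattern was not tested. Between 3rd and 1st instar alone, 5 Tweedle genes were lower, all in both scalings, and 2 higher (1 in both scalings).

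Chitin metabolism and the peritrophic matrix, the chitinous lining of the midgut, moved upward in part. Of 34 genes 16 were higher and none lower, but only 4 were higher in both scalings, and the median log2 ratio was 1.23 in normalized counts and -0.76 in CPM. The chitinase gene Cht4 had 384, 4010 and 90191 normalized counts and Cht9 1153, 7164 and 107551, which were 235-fold and 93.3-fold higher in the 3rd than in the 1st instar. Of the chitin synthesis genes kkv, the chitin synthase of epidermis and trachea, had 518, 507 and 672, and knk, which organizes chitin fibres, 119, 99.3 and 197. In CPM both had lower values in the 3rd than in the 1st instar. The chitin deacetylases serp and verm had 1754, 4287 and 1778, and 3115, 7051 and 3412. They were about level between the 1st and 3rd instar in normalized counts, and had lower values in the 3rd in CPM.

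Digestive enzymes rose with each instar. All but 4 of 26 gut serine proteases were higher in the 3rd than in the 1st instar (22, 84.6%, against 16.7% of all genes), 11 of them in both scalings, and none was lower. Their share of all counts was 2.87%, 4.37% and 9.98%. Jon25Bi, of the Jonah family of midgut proteases, had 34579, 87544 and 744241 normalized counts and was the Jonah gene with most counts in the 3rd instar. Jon65Aiv had 18054, 58518 and 654101, and Jon66Ci 5816, 19980 and 241806, a 41.6-fold rise (10.5-fold in CPM). Trypsin genes followed, with 10 of 11 higher but 3 in both scalings. Among them iotaTry had 215, 529 and 11241 normalized counts and lambdaTry 784, 1181 and 1521. Jonah genes of a cluster and the alpha to delta trypsins are near-identical copies, so reads may be divided among them.

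Enzymes of carbohydrate digestion behaved likewise. Of 25 genes, lysozymes included, 22 were higher, 15 in both scalings, and none was lower; the median log2 ratio was 4.34. Their share of counts was 0.201%, 0.716% and 1.45%. The maltase gene Mal-A4 had 909, 3579 and 70749 normalized counts (77.8-fold), Amyrel, related to amylase, had 578, 4537 and 35951, and the amylase genes Amy-p and Amy-d had 768, 1657 and 7634, and 860, 2562 and 14940. The lysosomal-type alpha-mannosidases LManIII to LManVI rose 19.0-fold to 46.0-fold. The lipase gene mag, which acts in the gut, rose 93.0-fold, with 264, 3356 and 24585. Lysozymes were split: LysS had 1629, 10248 and 152397 normalized counts, while LysE had 515, 207 and 158. Lipid genes of storage and synthesis hardly moved, with a median log2 ratio of 0.62 (-1.37 in CPM). In that list 1 of 18 genes was higher (5.56%, against 16.7% of all genes). That gene was Lip3, a lipase, with 424, 1632 and 13201, and FASN1, a fatty acid synthase, had 6237, 8284 and 9287.

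**Figure D3:**
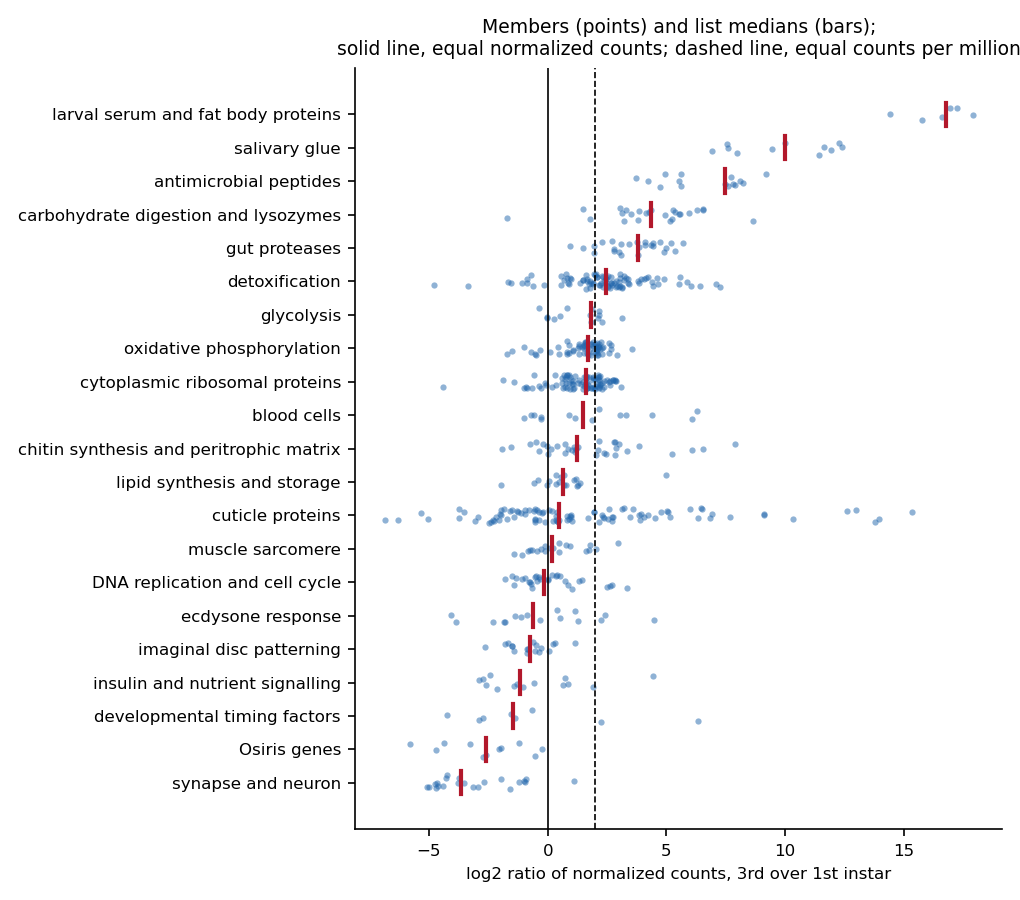
Log2 ratio of normalized counts, 3rd over 1st instar, for the members (points) and medians (bars) of 21 gene lists. The solid line marks equal normalized counts and the dashed line, at 1.99, equal CPM. Medians run from 16.76 for serum and fat body proteins to -3.65 for synapse and neuron genes, and the lists between the lines have medians that are positive in normalized counts and negative in CPM.

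Antimicrobial peptide genes rose as a group. All 15 that entered were higher in the 3rd than in the 1st instar, 14 in both scalings, with a median log2 ratio of 7.47. The attacin genes AttA, AttB and AttC had 6.45, 63.4 and 1909, then 11.6, 127 and 2244, then 11.6, 101 and 2746 normalized counts. Diptericin genes followed, with 6.45, 30.8 and 1763 for DptA and 47.7, 339 and 8453 for DptB. The antifungal peptide gene Drs had 45.1, 983 and 2181, and the cecropin gene CecA1 0, 24.0 and 858. Values in the 1st instar were between 0 and 47.7, and each of these 7 genes had its lowest value there and its highest in the 3rd. In replicate pairs of the other stages some of these genes also varied, with a largest log2 ratio of 6.98 for DptA and 4.39 for DptB, against 8.09 and 7.47 here. Attacin and cecropin copies resemble each other, and DptB has an overlapping gene on the other strand.

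Blood cell genes were less uniform. Of 14 that entered, 6 were higher and none lower, 3 in both scalings, with a median log2 ratio of 1.502 in normalized counts and -0.49 in CPM. The prophenoloxidase genes PPO1 and PPO2, whose products melanize wounds, are made by crystal cells and had 154, 2080 and 10225, and 215, 2435 and 16544 normalized counts. Those were 66.6-fold (55.5 to 80.7) and 76.8-fold (65.9 to 90.2) higher. NimC1, a phagocytosis receptor of plasmatocytes, had 11.6, 39.4 and 245 normalized counts, and Hml, hemolectin, had 254, 837 and 2462. Pan-haemocyte He had 54.2, 44.5 and 35.9, and the transcription factor gene srp 214, 247 and 132. Neither passed 4-fold in normalized counts.

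Detoxification genes rose widely in normalized counts, less so in CPM. Of 91 genes 58 were higher (63.7%) and 2 lower, and 15 of the 58 were higher in both scalings; the median log2 ratio was 2.44 in normalized counts and 0.45 in CPM. Cytochromes P450 had 36 of 56 higher, 14 in both scalings. Cyp6g1, known for insecticide resistance, had 153, 663 and 9965 normalized counts (64.9-fold), and Cyp12d1-p 59.3, 430 and 5103 (86.0-fold). Cyp4d2 had 111, 183 and 6517. Of 35 glutathione S-transferases 22 were higher, but 1 of them in both scalings, and GstE4 was lower, with 82.5, 5.14 and 2.99 (ratio 0.0362, 0.000903 to 0.209). GstD1 had 4797, 15713 and 25081.

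Genes of the nervous system went the opposite way. Of 22 synaptic and neuronal genes 15 were lower in the 3rd than in the 1st instar, 68.2% against 10.7% of all genes, all 15 in both scalings, and none was higher; the median log2 ratio was -3.65. Their share of counts was 0.111%, 0.0234% and 0.00878%. In normalized counts 15 genes were lower at the first step, against 3 at the second. The list's median log2 ratio at these steps was -2.60 and -0.92 in normalized counts, but -3.185 and -2.324 in CPM. How the fall divides between the steps thus depends on the scale, and it rests on the single 2nd-instar library. Gad1, which makes the transmitter GABA, had 847, 125 and 32.9 normalized counts, a ratio of 0.0388 (0.0193 to 0.0699). The synaptobrevin gene nSyb had 1072, 168 and 56.8, and the sodium channel gene para 219, 34.2 and 8.96. ChAT and VAChT, the acetylcholine genes of a shared locus whose exons overlap, had 302, 37.7 and 8.96, and 162, 30.8 and 5.98. The active-zone gene brp had 321, 42.8 and 23.9. Panneuronal elav was lower by 3.02-fold, with 244, 95.9 and 80.7, under the criterion of 4-fold. Syt1, a calcium sensor of vesicle release, was the exception, with 726, 204 and 1578 normalized counts. It was 2.17-fold higher in the 3rd instar in normalized counts and lower in CPM (71.8, 13.4 and 39.3). Ubiquitous secretion genes on the list moved less: Rop had 1247, 1027 and 616. For the genes that fell, a smaller share of neural tissue in the body and less RNA per neuron cannot be told apart.

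Timing factors of neural and disc development moved in both directions. The gene chinmo, which marks early neuroblast identity and keeps larval cells immature, had 613, 262 and 92.6 normalized counts, a ratio of 0.151 (0.102 to 0.218). Imp, an RNA-binding protein of young neuroblasts, had 507, 375 and 68.7, a ratio of 0.136 (0.0849 to 0.206). The heterochronic gene lin-28 had 56.7, 1.71 and 2.99, a ratio of 0.0527 (0.00130 to 0.309). Syp, which takes over from Imp in older neuroblasts, had 5.16, 175 and 415 normalized counts, 80.5-fold higher (30.7 to 300). In CPM its last step was about level, with 0.510, 11.5 and 10.3. The gene br, which specifies pupal fate, had 70.9, 54.8 and 338, 4.76-fold higher (3.42 to 6.70), but 8.41 against 7.02 CPM in 3rd and 1st instar. Of 8 factors that entered 2 were higher (1 in both scalings) and 3 lower, and svp, with 146, 159 and 92.6, moved least in normalized counts. The higher and lower factors were 25.0% and 37.5% of the list, against 16.7% and 10.7% of all genes.

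Ecdysone genes differed by member. Of 16 ecdysone-response genes, 3 were higher (1 in both scalings) and 3 lower. Each count is 18.75% of the list, against 16.7% higher and 10.7% lower among all genes. Eip74EF, an early-response gene, had 10.3, 44.5 and 227 normalized counts (22.01-fold, 10.6 to 52.8). Hr3, which follows the ecdysone peak, had 86.4, 122 and 5.98, a ratio of 0.0692 (0.00821 to 0.260). ImpL1 had 101, 397 and 5.98, and Eip78C 43.8, 42.8 and 0. EcR, the hormone's receptor, had 103, 95.9 and 149, and its partner usp 245, 303 and 323, neither past 4-fold in normalized counts. Hormone synthesis genes were scarce: 6 of 10 in the files entered, and 2 were higher (1 in both scalings). The gene sro had 10.3, 8.56 and 472 normalized counts and sad 30.95, 53.1 and 152, while spok had 55.4, 27.4 and 38.8. The rise of sro is uncertain, since its exons overlap those of Rnb. Exons of Hr3 overlap those of CG12912 and CG46321, and exons of usp those of Actn, so their values are uncertain too. Cyp18a1, which inactivates ecdysteroids, had 147, 206 and 41.8.

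Juvenile hormone genes gave 3 of 10 higher, none in both scalings. JhI-26, a juvenile hormone-inducible gene, had 574, 1027 and 5868 normalized counts and the epoxide hydrolase gene Jheh2 490, 856 and 4079. Kr-h1, the main transcription factor downstream of the hormone, had 187, 144 and 173, and the methyltransferase gene jhamt 47.7, 32.5 and 17.9. Neither passed 4-fold in normalized counts.

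Nutrient-signalling genes included more that fell than rose. Of 14 that entered, 5 were lower (35.7%, against 10.7% of all genes) and 1 was higher (7.14%, against 16.7%). The transcription factor gene foxo had 482, 253 and 111 normalized counts, its upstream receptor InR 131, 58.2 and 17.9, the sugar-responsive factor sug 295, 54.8 and 44.8, and Akh, the adipokinetic hormone, 64.5, 42.8 and 11.9. The glucosidase gene tobi, a target of insulin and Akh signals, had 205, 976 and 4485, 21.9-fold higher. Insulin-like Ilp2 of the brain had 212, 140 and 140, and Ilp5 10.3, 70.2 and 38.8. Thor had 1734, 1789 and 2674, in normalized counts.

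Housekeeping lists depended on the scale. Cytoplasmic ribosomal protein genes took 27.5%, 23.8% and 23.2% of counts, and their median log2 ratio for 3rd over 1st instar was 1.61 in normalized counts but -0.38 in CPM. Of 90 genes 27 were higher, none in both scalings, and 1 lower. That gene was RpL38, with 25287, 14563 and 1177 normalized counts, a ratio of 0.0466 (0.0420 to 0.0514). RpL24 had 34964, 51392 and 298804. Oxidative phosphorylation genes had 24 of 65 higher, none in both scalings, with medians of 1.68 and -0.31, and glycolysis genes 5 of 14, none in both scalings, with medians of 1.81 and -0.18. Triose phosphate isomerase Tpi had 5725, 10678 and 49403 normalized counts, and Ald1, aldolase, 16752, 17056 and 16353. The directions of these lists turn with the scale, and which scale is nearer to RNA per animal was not tested.

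**Figure D4:**
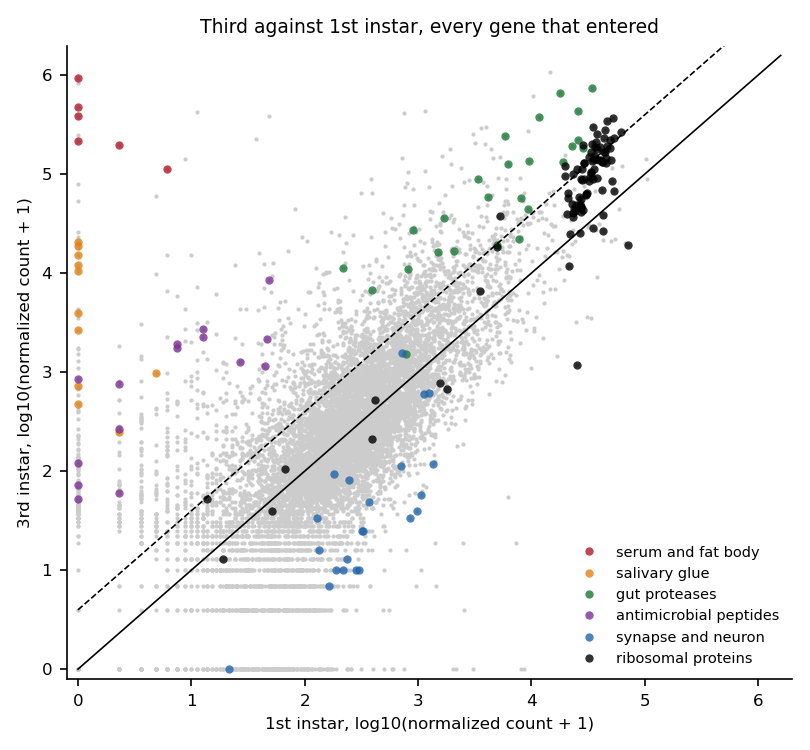
Third-instar against 1st-instar log10(normalized count + 1) for the 10399 genes that entered (grey), with 6 lists in colour. The solid line marks equal normalized counts and the dashed line equal CPM. Serum and glue genes lie at the left edge, with 0 or a few counts in the 1st instar, neuronal genes lie below the solid line except Syt1, and most ribosomal protein genes lie between the lines.

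Of 20 muscle sarcomere genes 2 were higher, Tm1 (19813, 44823 and 155254) and TpnC73F (3386, 12787 and 13837), and none in both scalings. The 2 are 10.0% of the list, against 16.7% of all genes. The list's median log2 ratio was 0.16 in normalized counts and -1.83 in CPM. Mhc, the myosin heavy chain, had 31614, 43161 and 29109 normalized counts. The giant sarcomere protein gene bt had 5092, 3084 and 1927, within 4-fold. Of 18 disc-patterning genes none was higher and 1, hth, was lower, with 484, 372 and 77.7. Lower genes were thus 5.56% of the list, against 10.7% of all genes. The median log2 ratio was -0.73 (-2.72 in CPM). The cell cycle list had a median log2 ratio of -0.17 in normalized counts and -2.16 in CPM. In it 4 of 30 genes were higher (13.3%, against 16.7% of all genes), none in both scalings. Those 4 act in mitosis: aurA, aurB, polo and fzy. The kinase gene aurB had 29.7, 73.6 and 299 normalized counts (10.1-fold, 6.35 to 16.6) and polo 64.5, 187 and 421. In normalized counts genes of the replication machinery stayed within 4-fold, with PCNA at 1438, 1223 and 1434.

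Stress genes gave 4 of 12 higher, none of them in both scalings, and 1 lower. The shares were 33.3% and 8.33%, against 16.7% and 10.7% of all genes. Hsp23, a small heat shock protein, had 81.2, 90.8 and 714 normalized counts, Hsp22 15.5, 13.7 and 105, and Hsp83, a chaperone of the Hsp90 class, 16109, 23420 and 6980. Copies of Hsp70 share sequence, and Hsp70Ab had 191, 34.2 and 26.9.

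Adult markers were mostly too scarce to enter. Of 12 found in the files 4 entered, and of those 3 were higher (2 in both scalings) and 1 lower, with a median log2 ratio of 4.26. The yolk protein gene Yp1 had 1.29, 0 and 0 normalized counts and the opsin gene ninaE 1.29, 0 and 2.99, while Yp3 had 11.6, 75.3 and 609. Among genes used by the testis, Mst87F had 0, 0 and 108 normalized counts and Mst98Ca 0, 0 and 50.8. Both entered through the 3rd instar alone, so their calls as higher in normalized counts were fixed by the filter. Of the meiotic arrest genes, aly had 0, 1.71 and 38.8 and sa 0, 0 and 29.9, but the list did not rise as a whole in CPM. Its summed CPM was 14.04, 9.94 and 6.63 over the instars, although members at 0 numbered 7, 3 and 1. Of 12 genes of this list in the files 4 entered, and 2 were higher in normalized counts and none in both scalings. For 3rd over 2nd instar 1 member was lower. The list's median log2 ratio for 3rd over 1st instar was 1.505 in normalized counts and -0.49 in CPM. The larvae were not sexed, and the sex composition of each pool was not measured. Embryonic patterning genes were scarce, and of 12 in the files just 4 entered, of which 2 were lower and none higher. The gene bcd had 10.3, 0 and 0.

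The steepest falls were mostly of genes that carry only systematic names. Among genes falling at both steps with a mean of 100 or more normalized counts, the 8 smallest ratios belonged to CG14452, CG12491, CG32189, CG12480, CG42815, phu, CG32188 and CG14421. CG14452 had 8682, 54.8 and 0 normalized counts, at least 969-fold lower, and CG12491 had 8040, 327 and 0, at least 897-fold lower. CG12480 kept its level in the 2nd instar, with 7310, 5553 and 17.9. Of these, phu had 2175, 47.9 and 0. Thus 6 of the 8 had fallen more than 10-fold by the 2nd instar. In the 2nd instar the highest peaks were those of Ccp84Ae, TwdlK, CG14422, TwdlB, CG31626 and CG14095, 3 of them cuticle protein genes. CG14422 had 59.3, 15652 and 2.99 normalized counts and CG31626 12.9, 2793 and 2.99. Of the troughs, CG8745, with 1585, 158 and 1512 normalized counts, and Root, with 144, 22.3 and 233, were within 4-fold between 3rd and 1st instar, although in CPM CG8745 was 4.16-fold lower and Root 2.46-fold lower in the 3rd. CG31274 had 24.5, 0 and 732. In all, 60 genes that entered were at 0 in the 1st and 2nd instar and 265 were at 0 in the 3rd.

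Genes with the most reads changed over the instars. Counts are not corrected for length, so this is an order of reads. The 5 leading genes of the 1st instar were eEF1alpha1, Act57B, RpL41, Lcp65Ag3 and Mlc2, with Act57B, the larval body wall actin, at 101844, 202195 and 142866 normalized counts over the instars. Ribosomal RNA pseudogenes led the 2nd-instar library: 18SrRNA-Psi:CR41602 had 10410, 270080 and 619222 normalized counts and 28SrRNA-Psi:CR45851 had 14685, 203529 and 1084529. These genes also varied between replicates of other stages, with largest log2 ratios of 4.694 and 4.225. The log2 ratios of 3rd over 1st instar were 5.894 and 6.207. In the 3rd instar 28SrRNA-Psi:CR45851 led, followed by Lsp2, Obp99b, Jon25Bi and Jon65Aiv. The libraries were made from polyadenylated RNA, and what part of these pseudogene reads comes from ribosomal RNA was not tested.

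Some genes that rose were neighbours in the genome. Runs of 4 or more neighbouring genes that entered, all called in the same direction for 3rd over 1st instar, numbered 34 for higher genes (182 genes) and 5 for lower genes (24 genes). Of all genes that entered, 16.7% were called higher and 10.7% lower. The number of runs to be had from these shares alone was not tested. All genes of the lower runs were lower in both scalings, as every gene called lower had to be. Among higher runs this held throughout only for 7 ribosomal RNA pseudogenes at X:23205822-23282931, CecA1 to CecC and LManIII to LManVI. Coordinates are of the BDGP6.54 annotation. The longest was a run of 13 genes at 2R:11337797-11359176, which holds the trypsins from kappaTry to iotaTry, with CG30031, CG30025 and CG12384; 4 of these 13 were higher in both scalings. Mal-A1 to Mal-A8 formed a run of 8 at 2R:8449664-8473961, of which 5 were higher in both scalings. At 3R:12360008-12376572 lay CG4115 and 7 GstD genes, with 1 of 8 in both scalings. A run of 8 at 2R:15680545-15701696 held CG30091, Impbeta11, CG30082, Erasp, CG33460, CG33461, CG33462 and CG42662, with 5 of 8 in both scalings. CG6296 to CG6271, at 3R:27003236-27026109, rose 5.63-fold to 379-fold, with CG6271 at 1143, 19181 and 432936 normalized counts. In that run 6 of 7 genes were higher in both scalings. The longest run of lower genes, at X:2925884-2946589, held CG14424, CG32793, CG3598, CG14420, CG14421, CG14422 and CG14423. All 7 were lower in both scalings, and 6 of them had more normalized counts in the 2nd than in the 1st instar: CG14424 had 240, 2947 and 0, CG14420 489, 1825 and 2.99 and CG3598 601, 2123 and 0, while CG14421 had 2018, 536 and 0. Neighbouring copies of a gene share sequence, so their reads and their ratios are not independent.

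The ratios moved with transcript length. In 5 equal groups of genes by length, the median log2 ratio of 3rd over 1st instar was 1.06 in the shortest (up to 1023 nt), 0.70, 0.38 and -0.21 in the next groups, and -0.72 in the longest (from 3363 nt). Across 10390 genes with an annotated length the Spearman coefficient with length was -0.362 for 3rd over 1st, -0.370 for 2nd over 1st and -0.227 for 3rd over 2nd instar. When the median ratio of genes of similar length was taken away, 1233 genes (11.9%) were higher and 1282 (12.3%) lower in the 3rd instar, so higher calls no longer outnumbered lower ones. Under that setting all 6 serum and fat body genes, all 11 glue genes and all 15 antimicrobial peptide genes were still called higher, with 16 of 26 gut proteases and 21 of 25 genes of carbohydrate digestion. Of the synaptic and neuronal genes 14 of 22 were lower. The calls for ribosomal protein genes fell to 1 higher and 3 lower, those for oxidative phosphorylation to 3 and 2, and 34 detoxification genes were higher, against 58 without the setting. The part of transcript length in each result was not tested further.

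**Figure D5:**
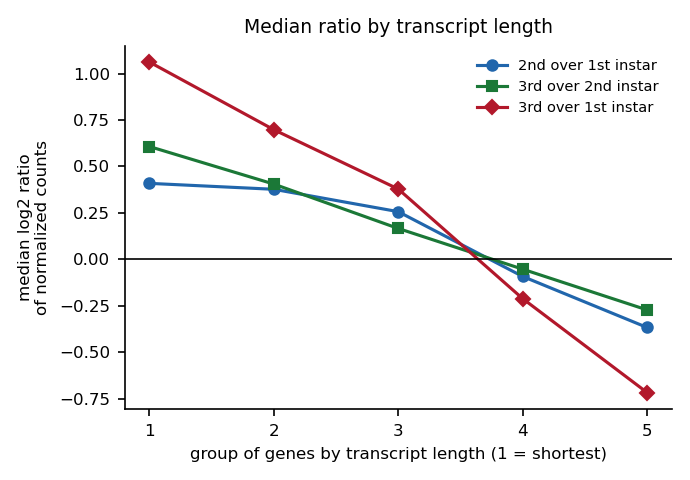
Median log2 ratio of normalized counts in 5 equal groups of genes ordered by the median length of their annotated transcripts, for the 3 instar pairs. All 3 lines fall from the shortest to the longest group, from 1.06 to -0.72 for 3rd over 1st instar.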

How the data were processed

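Larval, embryonic, pupal and adult whole-body RNA of D. melanogaster was sequenced from poly(A)-selected, strand-specific libraries. Per the labels and the study's methods, the authors trimmed reads (fastp), estimated gene abundances against the transcriptome (kallisto), summed them per gene and deposited log2-scale variance-stabilized values (all stages transformed together). Versions of these tools are not given in the sources used here. The D. virilis table was not used here.

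With E the antilog of a deposited value and E0 that of its lowest value (4.09 on the log2 scale), (E - E0) squared over E gave the normalized counts, and division by the smallest of a library gave its counts. All low counts (up to 50) were whole within 1e-06 in each library. The read-back was also run on simulated data made with the same formula and with the smallest count fixed in advance. That run could therefore not test whether these hold for the deposited values. Gene names came from the reference tables (14117 of 14127 genes). Exons of further named genes overlap those of a neighbour, on the same strand for sug, svp, Kr-h1 and Hsp22, among others. On the opposite strand this holds for br, among others. The split of reads of such genes is uncertain. Python 3.11.15, NumPy 2.4.6, pandas 2.3.3, SciPy 1.17.1 and matplotlib 3.10.9 were used.

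Libraries were grouped by their labels. With 1 library per instar no test across genes was made; ratios have exact binomial intervals (Clopper-Pearson, 95%), which cover counting error only. Depth was 7837234 to 13434700 counts per instar; these totals exceed the read numbers in the study's text, so what 1 count stands for in sequenced reads is not settled, and the intervals take counts as independent reads. Alternatives were other scalings, count minimums of 50 or none, 2-fold and 8-fold criteria and the deposited log2 differences. Further alternatives, calls in both scalings and ratios centred on transcript length, were chosen after seeing the data. Genes were named if they belonged to a list, to the 8 largest rises or falls or the 6 clearest peaks or troughs with a mean of 100, to the 5 most counted of a library, or to the 3 longest runs of neighbours (with ties). A few others of the runs fall outside this rule and were chosen after their values were seen. The instars and the gene lists were chosen with earlier results of these data known.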

Additional observations from a re-analysis of the deposited data

How the results depend on the processing

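No paired analysis was possible because each instar has 1 library. In CPM 507 genes were higher and 4798 lower for 3rd over 1st instar, 911 were lower for 2nd over 1st, and 315 were higher and 2723 lower for 3rd over 2nd. Genes rising and falling at both steps then numbered 389 and 4377, troughs 27, and 9 gene lists in place of 2 had a median 4-fold or more lower. In both scalings 507 genes were higher for 3rd over 1st and 315 for 3rd over 2nd instar, 389 rose at both steps and 15 had a trough. Median-ratio scaling and centring on transcript length left every count of genes within 1.5 times, and 12 of 28 list medians changed sign in CPM, against 1 under each of these. A mean of 50 or more gave 681 lower for 3rd over 1st, 225 lower for 2nd over 1st, 542 falling at both steps and 10 troughs; no filter left every count within 1.5 times.

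At 2-fold the higher and lower genes were 3233 and 2477 for 3rd over 1st, 1487 and 1307 for 2nd over 1st and 2514 and 1743 for 3rd over 2nd instar, with 2717 rising, 1839 falling, 370 peaks and 224 troughs; 15 lists were then higher and 5 lower, and replicate pairs had a median of 6.36% of genes past 2-fold. At 8-fold they were 899 and 518, 300 and 187, and 449 and 302, with 768 rising, 430 falling, 108 peaks and 10 troughs. A difference of 2 in the deposited log2 values, which are compressed at low counts, gave 573 lower for 3rd over 1st, 334 higher and 122 lower for 2nd over 1st, 316 lower for 3rd over 2nd, 486 falling and 2 troughs, and 1 list lower. Over genes with a mean of 10 or more, the Spearman coefficients were 0.726 for 3rd and 1st, 0.878 for 2nd and 1st and 0.833 for 3rd and 2nd instar. Leaving out replicate 1, 2 or 3 of the other stages in turn gave a median share between 0.294% and 0.808% past 4-fold. Without the 2nd-instar library, in the ratio and in the mean, 1854 genes were higher and 1115 lower for 3rd over 1st instar. The cause of these differences was not tested. Low depth limits genes with few reads: 1 count is 1.29 normalized counts in the 1st and 2.99 in the 3rd instar.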

Other observations

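Some genes outside the lists appeared or disappeared between instars; they were chosen after their values were seen. Of the genes with 0 counts in the 1st and 2nd instar, CG15404 had the most in the 3rd, 25807 normalized counts, followed among genes outside the glue list by CG34279 with 3526, CG12715 with 1748 and CG4757 with 1724. Sgsf, named as a salivary gland secretion gene, had 0, 0 and 1282. Several genes known from male germ cells were also found in the 3rd instar only: Mst77F, which encodes a sperm chromatin protein, had 0, 0 and 65.7 normalized counts, loopin-1 0, 0 and 114, and the sperm leucylaminopeptidase genes S-Lap3, S-Lap4 and S-Lap8 had 111, 71.7 and 56.8 in the 3rd instar and 0 in the others.

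Among genes with 0 counts in the 3rd instar, GluClalpha, a glutamate-gated chloride channel of neurons, had 255, 20.6 and 0 normalized counts. CG14453 had 753, 1.71 and 0, and CG14418 had 316, 1692 and 0.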
